A study of Mus musculus with 6 samples.

Results

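The clustered protocadherins are adhesion proteins encoded by a tandem array of genes on mouse chromosome 18. They were taken as the protein-coding rows of the deposited table whose symbol begins with Pcdha, Pcdhb or Pcdhg and ends in a number. This gave 57 of the table's 54532 genes, with 14 in the alpha cluster, 22 in the beta cluster and 21 in the gamma cluster. In 34 of them the number follows the cluster letter directly. The other 23 are the gamma genes and the alpha C-type genes, whose symbols carry a further letter, and they were kept because the gamma cluster has no other members. Pcdhgb8 was left out because the table lists it as a polymorphic pseudogene.

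The libraries came from primary neurospheres of C57BL/6 mouse embryos at E14.5, with 3 WT libraries (replicates 3, 6 and 7) and 3 KO libraries (replicates 1, 2 and 3). KO stands for a conditional knockout of Ash2l, a core subunit of the COMPASS complexes that methylate histone H3 at lysine 4, made with the D6-Cre driver of the developing dorsal forebrain. All 6 cultures were grown with B27 supplement, BSA, and EGF and bFGF at 20 ng/ml each, and RNA was taken on day 6. The labels give the dorsal cortex as the source but describe dissection of the lateral ventricle walls, and they do not say how these fit together. Cells that had not recombined were not counted, and a neurosphere culture holds progenitors beside the neurons and glia they make. Whether the libraries of a group stem from different embryos is not stated, and p-values then reflect only the spread among libraries, which may be technical.

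Each alpha or gamma protein is made from 1 large variable exon, which encodes the extracellular cadherin repeats, the membrane span and part of the cytoplasmic tail, spliced to constant exons that all genes of that cluster share. Beta genes have a variable exon and no constant exons. Each variable exon has its own promoter. In neurons most are switched on by chance in a few cells each, through CTCF and cohesin loops that bring 1 promoter to a distant enhancer, so that neighbouring cells carry different combinations. The C-type genes at the end of the alpha and gamma clusters (Pcdhac1, Pcdhac2, Pcdhgc3, Pcdhgc4 and Pcdhgc5) are instead used more evenly. The proteins bind their own kind across cell contacts and serve in the self-avoidance of neurites and in neuronal survival.

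Total counts ran from 16764480 to 21983659 reads per library, and the 57 genes together took 0.0400% to 0.0511% of them. Ash2l itself stood at 116, 113 and 109 CPM (read counts scaled to a common library total, adjusted by the TMM method) in WT libraries 3, 6 and 7 and at 86.2, 99.2 and 102 CPM in KO libraries 1, 2 and 3. All KO libraries were below all WT libraries, but the log2 fold change of -0.24 ± 0.10 (SE) did not pass the test (edgeR quasi-likelihood, adjusted p = 0.119). No source used here gives the exons deleted, so reads from the rest of the gene do not check the labels. WT library 3 stood nearest to the KO libraries in the alpha and gamma clusters and in the neuron markers, and values without it are given below. Neuron markers of a list of 24 genes averaged 6.50, 5.07 and 4.77 on the log2(CPM + 1) scale in WT libraries 3, 6 and 7 and 7.25, 6.69 and 6.65 in KO libraries 1, 2 and 3.

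What the counts can see differs from gene to gene. In the mm10 coordinates of the GENCODE M21 annotation, the alpha genes span chromosome 18 from 36930184 to 37187661, the beta genes from 37264938 to 37524479 and the gamma genes from 37661793 to 37841873, all on the plus strand. The constant exons hold 2860 bases in the alpha cluster and 2116 in the gamma cluster. The gene length in the table included them for every member. Of the 1228 genes in the table whose every exon base is covered by another annotated gene, 1193 (97.1%) had no read in any library. Reads that fell on shared exons were thus left out for nearly all such genes, and the counts of an alpha or gamma member describe its own exon. A deposited FPKM divides those reads by a length that includes the constant exons, so FPKM sets alpha and gamma levels too low beside beta levels. Levels are therefore compared between genes as CPM per kb of exon that no other annotated gene covers on either strand. Antisense genes cover 1381 exon bases of Pcdhga11 and 1559 of Pcdhgc3, among others. The use of strand in counting is not given, and if strand was used, the levels of such genes are set too high.

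Pcdhga10 had no such exon at all, because the antisense-lying gene Gm26672 covers its variable exon and the constant exons are shared. It had 2, 2 and 1 reads in WT libraries 3, 6 and 7 and 0 in each KO library. Pcdha4 kept 404 own bases, the rest of its variable exon being shared with Gm42416 and Gm38225, and it had 1, 0 and 0 reads in WT and 2, 0 and 3 in KO. The table holds the symbol Pcdha11 on separate rows. The row ENSMUSG00000102206 kept 1268 own bases beside the antisense gene Gm10545 and had 1 read in each WT library and 4, 0 and 1 in KO. A RefSeq table of the GRCm38.p6 assembly has a Pcdha10 that starts 37005320 and a Pcdha11 that starts 37010858, so the other row, ENSMUSG00000007440, lies where RefSeq places Pcdha10. If counting ignored strand, which is not given, counts near 0 say nothing of whether Pcdhga10 is used. For Pcdha4, covered mostly by Gm42416 on the same strand, they say little. The second Pcdha11 row had 8 reads in all, where Pcdhga11, with 1256 own bases, had 1216.

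Pcdhb1, the first beta gene, was different. It had 2588 own bases, none of them shared, and only 2, 1 and 0 reads in WT libraries 3, 6 and 7 and 0, 0 and 2 in KO libraries 1, 2 and 3. All these counts are under the limit that 3 reads set, 0.142 to 0.173 CPM depending on the library, which covers counting error only. Pcdha8 had 2478 own bases and 3, 7 and 2 reads in WT against 4, 2 and 14 in KO. These 5 genes (Pcdha4, Pcdha8, Pcdha11 ENSMUSG00000102206, Pcdhb1 and Pcdhga10) did not pass the filter on low counts, which left 52 members tested. Members also resemble each other in sequence. Of all 100-base windows in a gene's own exon bases, up to 8.63% in the alpha cluster occurred in another member. The maximum was 2.24% in the beta cluster and 9.63% in the gamma cluster. For 50-base windows the maxima were 25.3%, 9.52% and 16.8%. The read length is not given, so the part of the reads that could be split between relatives is not known.

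**Figure D1:**
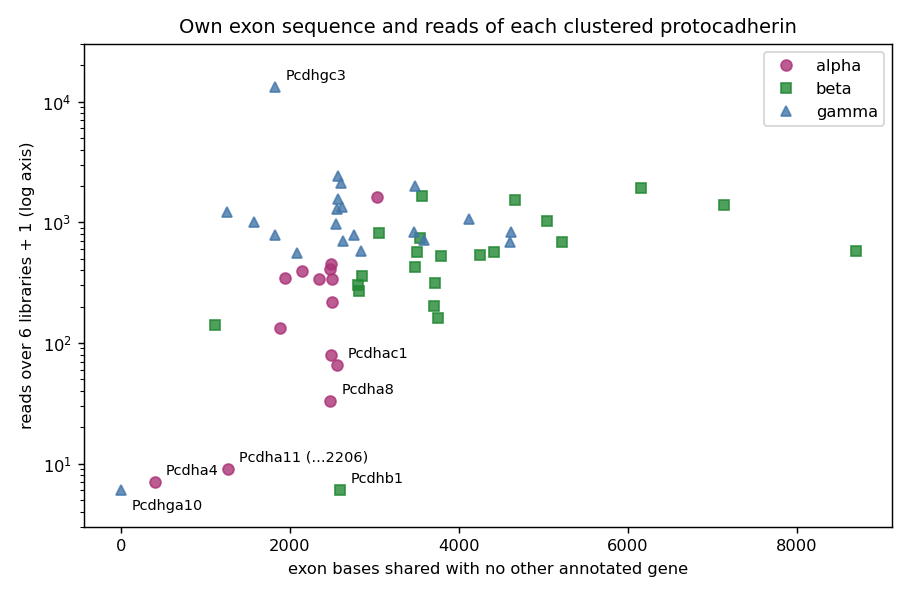
Each point is 1 of the 57 genes. The x axis gives exon bases shared with no other annotated gene, and the y axis gives reads summed over the 6 libraries plus 1, on a log axis. Pcdhga10, Pcdha4 and the second Pcdha11 row lie at the lower left, with few own bases and under 10 reads, while Pcdhb1 has 2588 own bases and as few reads.

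Among WT libraries, the gamma cluster held the highest levels. Pcdhgc3, a C-type gamma gene, led with 73.3 ± 15.4 CPM per own kb (SD, n = 3), against 9.53 ± 1.26 for Pcdhgb6, 8.91 ± 0.43 for Pcdhga3 and 7.72 ± 0.17 for Pcdhga11. The lead of Pcdhgc3 was larger than its spread, while Pcdhgb6 and Pcdhga3 did not differ beyond theirs. Pcdhb20 was the highest beta gene at 4.89 ± 1.21 CPM per own kb and ranked 9 of the 56 genes with own bases. Pcdhac2 was the highest alpha gene at 2.98 ± 0.54 and ranked 15. The other alpha genes filled the lower ranks, from 1.10 ± 0.43 for Pcdha12 down to 0.115 ± 0.115 for Pcdha1 among those tested. In KO libraries Pcdhgc3 was again first, at 49.4 ± 5.2 CPM per own kb, and Pcdhga11 second, at 8.997 ± 0.345. Pcdhgc4 ranked 3 in KO and 12 in WT, and Pcdhac2 ranked 5 in KO.

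**Figure D2:**
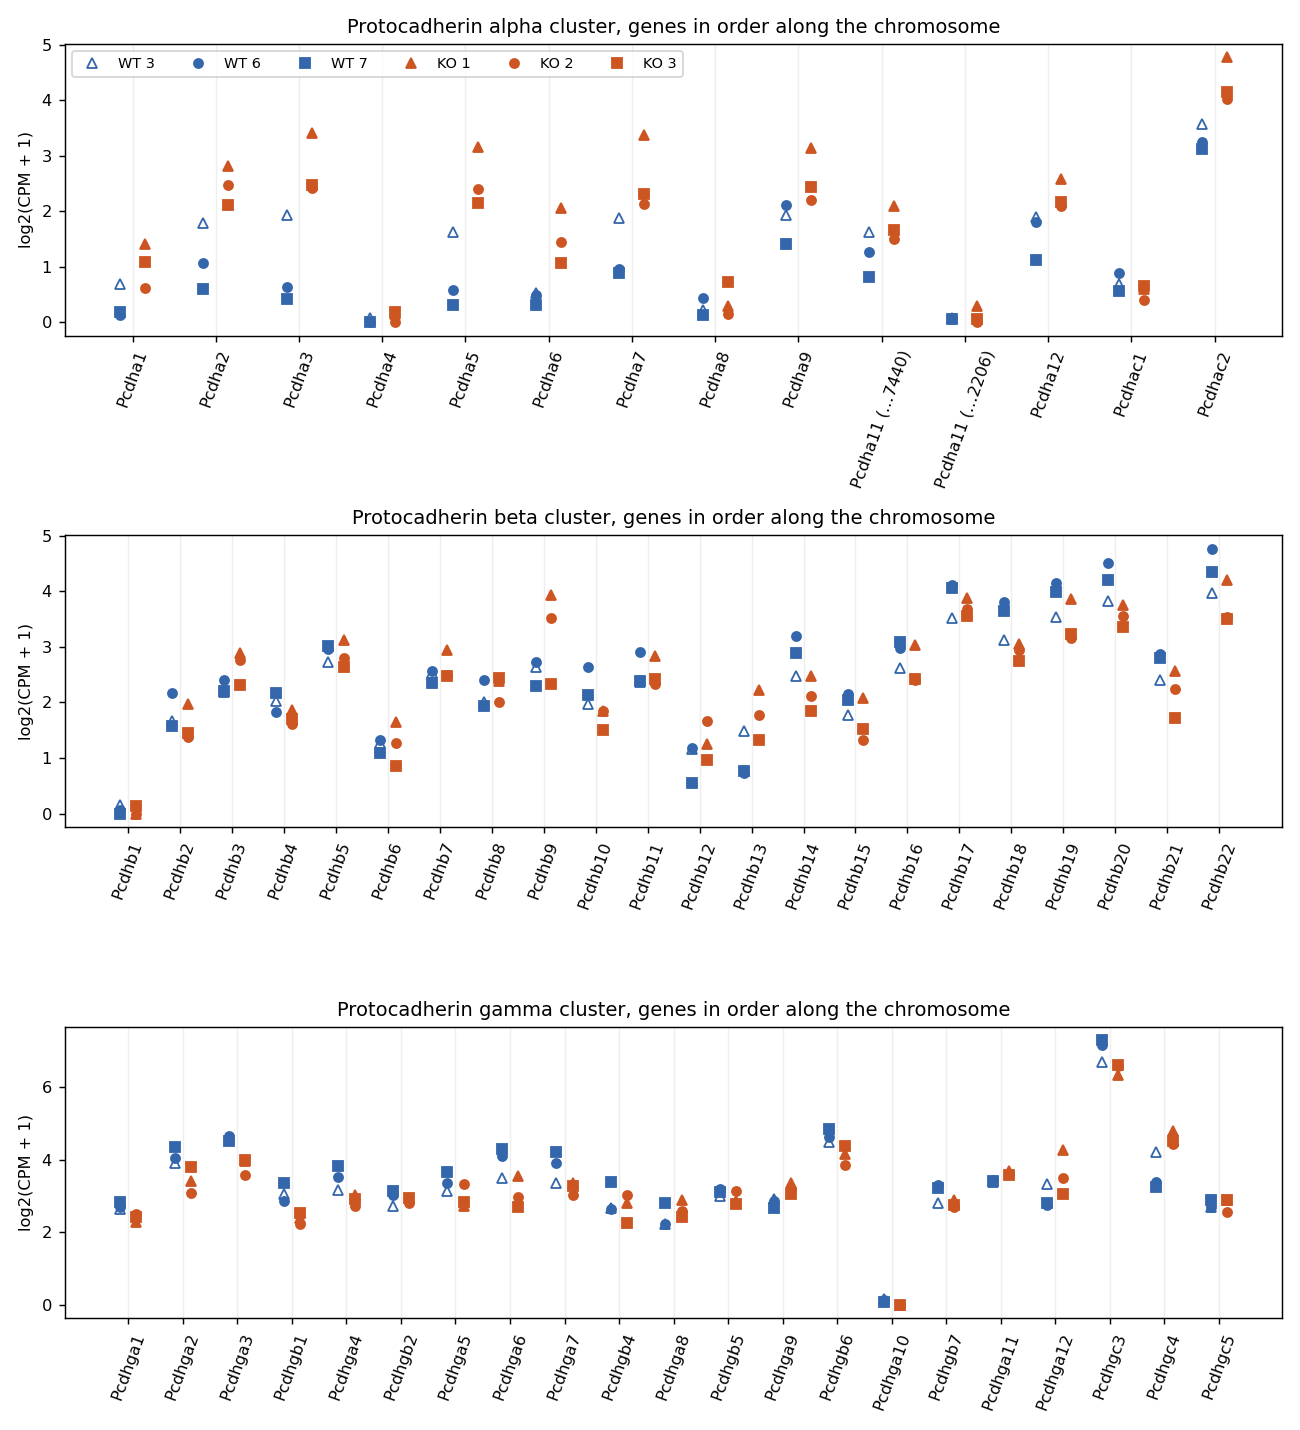
Level of each gene in each library as log2(CPM + 1), in the order of the genes along the chromosome, with WT libraries 3, 6 and 7 in blue (library 3 open) and KO libraries 1, 2 and 3 in orange. Alpha genes stand higher in KO, several beta and gamma genes lower, and WT library 3 is often the WT library nearest to KO.

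The alpha cluster carried more reads in KO than in WT. Summed over its 14 genes it stood at 30.5, 20.6 and 14.3 CPM in WT libraries 3, 6 and 7 and at 81.2, 43.1 and 45.8 CPM in KO libraries 1, 2 and 3. The groups did not overlap, with WT library 3 the highest WT value and KO library 1 the highest of all. The ratio of the means was 2.61, from 21.8 ± 8.2 to 56.7 ± 21.3 CPM (SD, n = 3), and it was 3.25 without WT library 3 and 2.08 without KO library 1. In bulk libraries, more cells of a type and more RNA per cell cannot be told apart.

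By gene, 3 of the 11 alpha genes tested rose in KO (Pcdha6, Pcdhac2 and Pcdha5) and none fell, by edgeR's quasi-likelihood test with Benjamini-Hochberg adjustment over all genes. Of the 16606 genes tested in all, 29% were called, 13.5% higher and 15.5% lower. The KO libraries were all above the WT libraries in 8 of the 11 alpha genes, against 23.5% of all genes tested. Of the genes counted here, Pcdha1, Pcdha2, Pcdha3, Pcdha5 and Pcdha6 reached the filter's minimum of 0.513 CPM, taken on raw library totals without the TMM adjustment, in all KO libraries but not in all WT libraries, and Pcdha6 in no WT library. They entered the test through the group in which they are high, so these counts are no measure of how the cluster behaves. The median log2 fold change of the alpha genes tested was 1.77, and over all 14 without a filter it was 1.43, against 0.00 for all genes tested and 0.14 without the filter.

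Pcdha6, an alternate alpha isoform, stood at 0.448, 0.401 and 0.236 CPM in WT libraries 3, 6 and 7 and at 3.17, 1.72 and 1.09 CPM in KO libraries 1, 2 and 3. All KO libraries lay above all WT libraries. The log2 fold change was 2.44 ± 0.52 (SE; edgeR quasi-likelihood, adjusted p = 0.0147), and the call was lost without WT library 6 or WT library 7 (adjusted p of up to 0.0598). Part of its variable exon lies under Gm37013 and the antisense gene Gm37753.

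Pcdhac2, the C-type alpha isoform that neurons use broadly, stood at 10.9, 8.47 and 7.75 CPM in WT libraries 3, 6 and 7. In KO libraries 1, 2 and 3 it stood at 26.4, 15.1 and 16.8 CPM. The groups did not overlap, and KO library 1 lay well above the other KO libraries. The log2 fold change was 1.11 ± 0.27 (SE; edgeR quasi-likelihood, adjusted p = 0.0226), and the call was lost without WT library 6, WT library 7 or KO library 1 (adjusted p of up to 0.0832). Pcdhac1, the C-type gene just before it, had 0.616, 0.852 and 0.473 CPM in WT and 0.518, 0.323 and 0.567 CPM in KO. These groups overlapped, and its log2 fold change of -0.45 ± 0.41 was the only one below 0 among the alpha genes tested (adjusted p = 0.422). The difference between these 2 C-type genes was not tested.

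Pcdha5 stood at 2.07, 0.501 and 0.236 CPM in WT libraries 3, 6 and 7 and at 7.88, 4.26 and 3.45 CPM in KO libraries 1, 2 and 3. WT library 3 was far above the other WT libraries, though below every KO library. Its log2 fold change was 2.48 ± 0.76 (SE; edgeR quasi-likelihood, adjusted p = 0.0477). The call held without WT library 3, with a log2 fold change of 3.795, and was lost when any 1 of the other 5 libraries was left out (adjusted p of up to 0.147) or with library totals only (0.0513).

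The remaining alternate alpha genes tested did not pass. Pcdha3 stood at 2.80, 0.551 and 0.331 CPM in WT and 9.61, 4.37 and 4.53 CPM in KO, with no overlap (log2 fold change 2.34 ± 0.79, edgeR quasi-likelihood adjusted p = 0.0634). Pcdha2 stood at 2.46, 1.10 and 0.52 CPM in WT and 6.04, 4.53 and 3.31 CPM in KO (1.77 ± 0.56, adjusted p = 0.0525), and Pcdha7 at 2.69, 0.952 and 0.851 CPM in WT and 9.32, 3.40 and 3.97 CPM in KO (1.90 ± 0.60, adjusted p = 0.0525). In all 3 genes KO library 1 was the highest and WT library 3 the highest of WT. Pcdha9 stood at 2.80, 3.31 and 1.65 CPM in WT and 7.83, 3.61 and 4.44 CPM in KO, with log2 fold change 1.03 ± 0.40 (adjusted p = 0.0952). Pcdha12, Pcdha11 ENSMUSG00000007440 and Pcdha1 had log2 fold changes of 0.87, 0.79 and 1.97. In Pcdha12 the groups did not overlap, while in the other two WT library 3 lay above KO library 2. Among the 10 alpha genes with a log2 fold change above 0, WT library 3 was the highest WT library in 9 and KO library 1 the highest KO library in all 10. Without WT library 3, 7 alpha genes rose and the median log2 fold change was 2.50, while 38.24% of all genes tested were then called in either direction. Pcdha6 and other genes that entered the test through the group in which they are high are included here too. This count and this median are therefore no measure of how the cluster behaves.

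**Figure D3:**
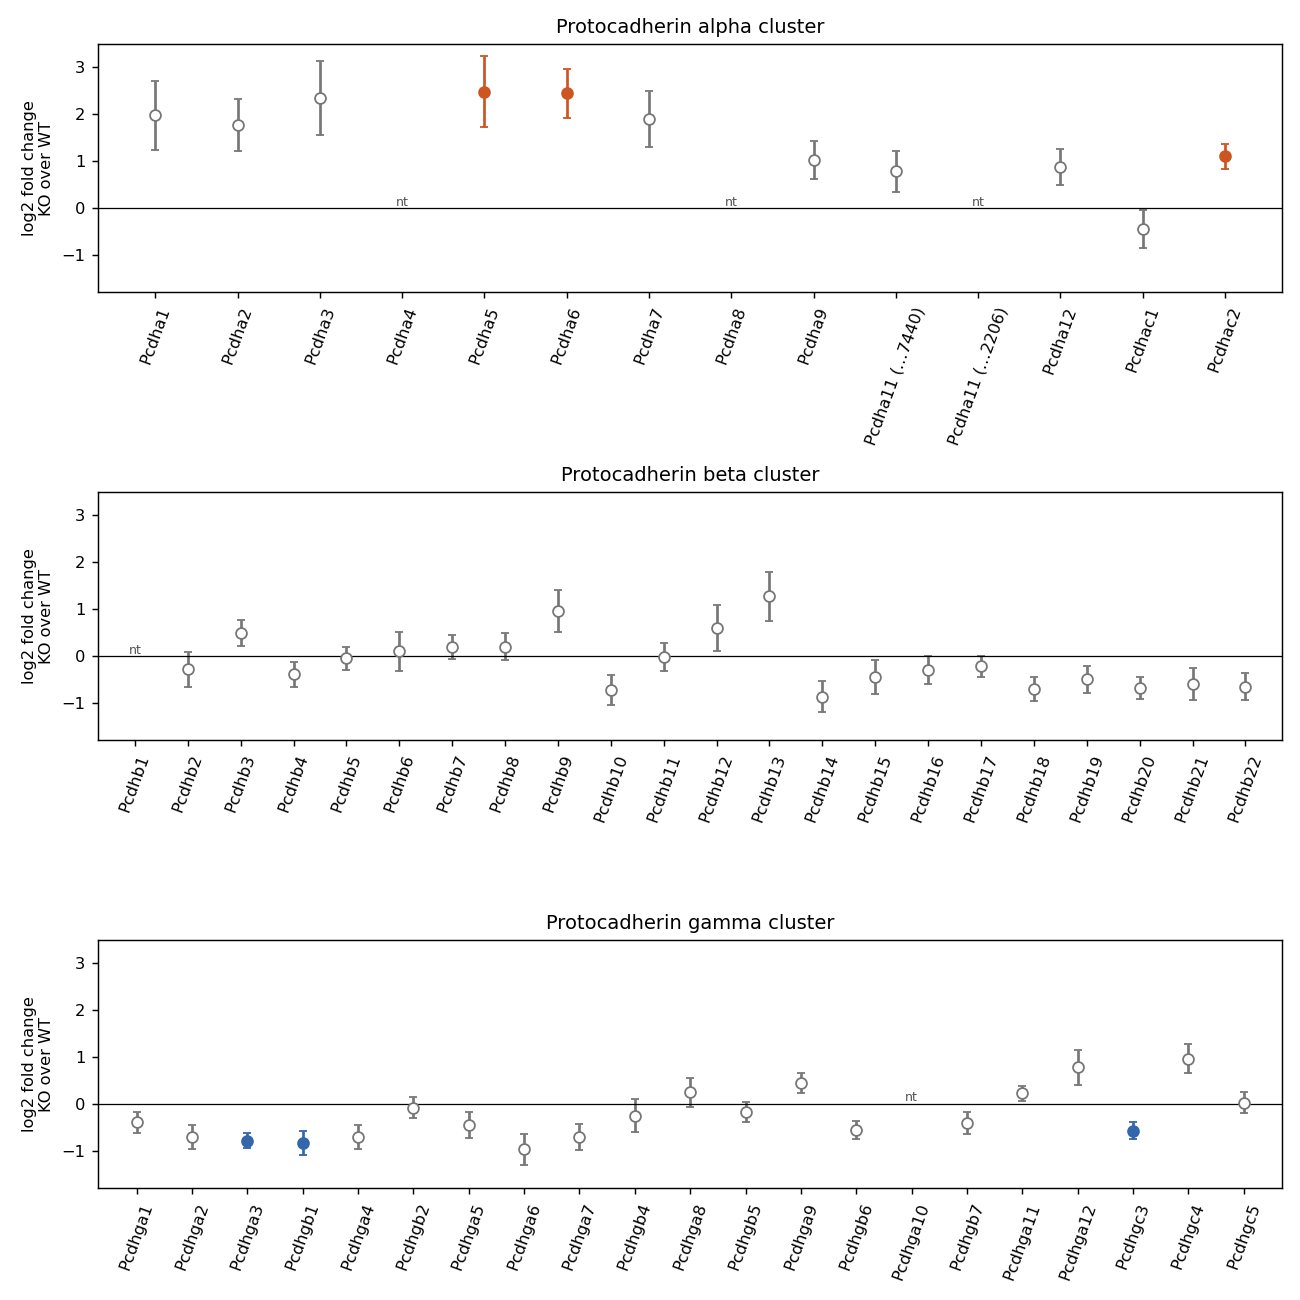
Log2 fold change of KO over WT with its SE for each gene in chromosome order. Filled points passed the edgeR quasi-likelihood test at an adjusted p of 0.05 (orange higher, blue lower), open points did not, and nt marks the 5 genes not tested. Alpha genes lie between -0.45 and 2.48, beta genes between -0.87 and 1.27 and gamma genes between -0.97 and 0.97.

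How the alpha reads were shared out also differed by library. Pcdhac2 was the most counted alpha gene in all 6 libraries, with 35.7%, 41.2% and 54.3% of the cluster's reads in WT libraries 3, 6 and 7 and 32.5%, 35.1% and 36.7% in KO libraries 1, 2 and 3. The shares in WT library 3 and KO libraries 2 and 3 lay close together. Counting genes at 1 CPM or more, 8, 5 and 3 alpha genes were detected in WT libraries 3, 6 and 7 and 10, 9 and 10 in KO. The effective number of genes (the exponential of the Shannon entropy of the shares) was 7.99, 6.72 and 5.29 in WT and 8.11, 7.68 and 8.01 in KO, so the groups overlapped and WT library 3 fell among the KO libraries. Alpha reads per library were 302 to 544 in WT and 800 to 1411 in KO, and genes of few reads are easier to detect where the cluster has more of them.

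**Figure D4:**
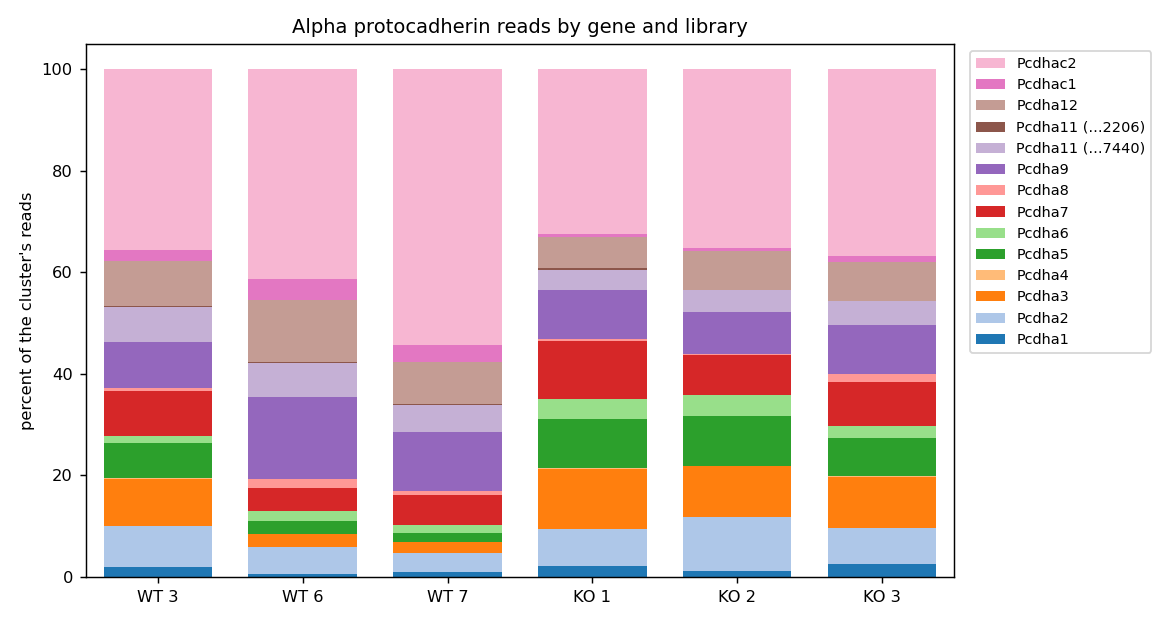
Percent of the alpha cluster's reads in each gene, 1 bar per library. Pcdhac2 is the largest part of every bar, 54.3% in WT library 7 and 32.5% in KO library 1, and the bar of WT library 3 resembles those of KO libraries 2 and 3.

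The beta cluster did not separate the groups by its summed level. Its 22 genes summed to 112, 166 and 139 CPM in WT libraries 3, 6 and 7 and to 145, 107 and 91.4 CPM in KO libraries 1, 2 and 3. The values overlapped, and the ratio of the means, 0.824, was within the spread (139 ± 27 against 115 ± 28 CPM, SD, n = 3). None of the 21 beta genes tested passed the edgeR quasi-likelihood test, against 29% of all genes tested. At an unadjusted p under 0.05 there were 4, 1 higher and 3 lower. No share over all genes was taken at that looser limit. DESeq2 called 1 beta gene lower and none higher, against 28.55% of all genes it tested called in either direction. The KO libraries were all below the WT libraries in 3 beta genes (Pcdhb10, Pcdhb18 and Pcdhb20) and all above them in none. Of all genes tested, 25.2% had the first order and 23.5% the second. The effective number of beta genes was 16.94, 15.27 and 15.10 in WT libraries 3, 6 and 7. It was 17.10, 17.17 and 16.97 in KO libraries 1, 2 and 3, without overlap but with WT library 3 close to KO. The most counted beta gene held 13.1% to 15.8% of the cluster's reads in WT and 11.1% to 12% in KO.

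Pcdhb20 stood at 13.1, 21.7 and 17.4 CPM in WT and 12.4, 10.8 and 9.21 CPM in KO, with WT library 3 and KO library 1 close to each other. Its log2 fold change was -0.69 ± 0.23 (SE; edgeR quasi-likelihood, adjusted p = 0.0663). Pcdhb18 stood at 7.73, 12.98 and 11.6 CPM in WT and 7.31, 6.74 and 5.71 CPM in KO (-0.71 ± 0.25, adjusted p = 0.0755), and Pcdhb10 at 2.91, 5.26 and 3.40 CPM in WT and 2.59, 2.59 and 1.84 CPM in KO (-0.72 ± 0.33, adjusted p = 0.132). In each of these genes WT library 3 was the lowest WT library. Pcdhb14 stood at 4.54, 8.17 and 6.43 CPM in WT and 4.55, 3.34 and 2.60 CPM in KO, so that KO library 1 just overlapped WT library 3 (-0.87 ± 0.33, adjusted p = 0.0871).

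Pcdhb13 went the other way, at 1.79, 0.652 and 0.709 CPM in WT and 3.68, 2.43 and 1.51 CPM in KO. WT library 3 lay above KO library 3 (log2 fold change 1.27 ± 0.52, edgeR quasi-likelihood adjusted p = 0.106). Pcdhb9, named after its values were seen, stood at 5.26, 5.66 and 3.92 CPM in WT and 14.4, 10.5 and 4.06 CPM in KO, so that KO library 3 lay among the WT libraries. The most counted beta genes were Pcdhb22 in WT and KO library 1 and Pcdhb17 in KO libraries 2 and 3. Pcdhb22, the last gene of the cluster, stood at 14.7, 26.3 and 19.4 CPM in WT and 17.4, 10.6 and 10.4 CPM in KO, with overlap. Pcdhb17 stood at 10.5, 16.2 and 15.7 CPM in WT and 13.8, 11.9 and 10.7 CPM in KO, and Pcdhb19 at 10.6, 16.8 and 14.8 CPM in WT and 13.6, 7.92 and 8.36 CPM in KO, both with overlap. WT library 3 was the lowest WT library in 12 of the 14 beta genes with a log2 fold change below 0. Without it, 4 of 21 beta genes tested fell and 1 rose, while 38.24% of all genes tested were then called in either direction.

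The gamma cluster, the largest by reads, was lower in KO. Its 21 genes summed to 285, 337 and 377 CPM in WT libraries 3, 6 and 7 and to 265, 250 and 260 CPM in KO libraries 1, 2 and 3. The groups did not overlap, with WT library 3 nearest to KO, and the ratio of the means was 0.775 (333 ± 46 to 258 ± 8 CPM, SD, n = 3). Without Pcdhgc3 the ratio was 0.843 and the groups overlapped. Without all C-type genes, Pcdhgc4 among them, the sum was 160, 180 and 206 CPM in WT libraries 3, 6 and 7. It was 153, 130 and 135 CPM in KO libraries 1, 2 and 3, without overlap and with a ratio of 0.766. Among the 20 gamma genes tested, 3 fell (Pcdhga3, Pcdhgb1 and Pcdhgc3) and none rose by the edgeR quasi-likelihood test. These 3 are 15% of the genes tested, close to the 15.5% of all genes called lower. KO libraries were all below WT libraries in 8 gamma genes, or 40% against 25.2% of all genes, and all above them in 3, or 15% against 23.5%. The median log2 fold change was -0.40. The effective number of gamma genes was 11.64, 10.03 and 10.24 in WT and 13.17, 11.42 and 11.25 in KO, with overlap.

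Pcdhga3, an alternate isoform of the A subfamily, stood at 23.3, 24.2 and 22.0 CPM in WT libraries 3, 6 and 7 and at 14.6, 10.99 and 14.7 CPM in KO libraries 1, 2 and 3. The WT libraries were close together and the groups were far apart. Its log2 fold change was -0.78 ± 0.17 (SE; edgeR quasi-likelihood, adjusted p = 0.0158), and the call was lost without WT library 6 or KO library 2 (adjusted p of up to 0.0673).

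Pcdhgb1, an alternate isoform of the B subfamily, stood at 7.34, 6.22 and 9.27 CPM in WT and 4.26, 3.72 and 4.77 CPM in KO, with no overlap. The log2 fold change was -0.84 ± 0.25 (adjusted p = 0.0435, edgeR quasi-likelihood). Its annotated exons overlap those of Pcdhga4 over 1038 bases, and Pcdhga4 itself had a log2 fold change of -0.71 ± 0.25 that did not pass (adjusted p = 0.0735).

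Pcdhgc3, the C-type isoform known for signalling through Axin1 and for dendrite growth, stood at 102, 142 and 156 CPM in WT libraries 3, 6 and 7 and at 78.9, 94.4 and 96.3 CPM in KO libraries 1, 2 and 3. WT library 3 lay just above the highest KO library. Its log2 fold change was -0.57 ± 0.17 (SE; edgeR quasi-likelihood, adjusted p = 0.0478). The calls of Pcdhgb1 and Pcdhgc3 held without WT library 3 and were lost when any 1 of the other libraries was left out, with adjusted p of up to 0.148 and 0.1499. With library totals only, their adjusted p was 0.0542 and 0.0507, and on the log2(FPKM + 1) scale with limma 0.0845 and 0.0568. Pcdhgb1 was also not called without the filter (adjusted p = 0.0714), nor Pcdhgc3 with RLE size factors (0.0555). The antisense gene BC037039 covers 1559 exon bases of Pcdhgc3.

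Pcdhgc4, the C-type isoform needed for neuronal survival, had the largest log2 fold change of the 6 gamma genes above 0. It stood at 17.6, 9.37 and 8.56 CPM in WT and 26.8, 20.7 and 21.9 CPM in KO, with all KO libraries above all WT libraries. The log2 fold change was 0.97 ± 0.30 and just missed the threshold (edgeR quasi-likelihood, adjusted p = 0.0507). Without WT library 3, the highest WT library for this gene, the log2 fold change was 1.36 and the gene was called. Pcdhgc4 was also called with RLE size factors, without the filter, with DESeq2, with limma-voom and on both log2 FPKM scales. It was not called with library totals only, with a filter of 1 CPM, or when any other library was left out. Pcdhgc5 stood at 5.49, 5.46 and 6.43 CPM in WT and 6.39, 4.85 and 6.42 CPM in KO, with overlapping groups and a log2 fold change of 0.02 ± 0.23.

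Of the 18 alternate gamma genes, all 6 of the B subfamily and 7 of the 11 tested of the A subfamily had a log2 fold change below 0. Pcdhgb6 stood at 21.6, 23.8 and 27.9 CPM in WT and 16.7, 13.4 and 19.5 CPM in KO, without overlap (-0.56 ± 0.19, edgeR quasi-likelihood adjusted p = 0.0653). Pcdhga6 stood at 10.3, 16.2 and 18.7 CPM in WT and 10.7, 6.90 and 5.43 CPM in KO, where KO library 1 lay above WT library 3 (-0.97 ± 0.33, adjusted p = 0.0655). The 4 A genes above 0 were Pcdhga8, Pcdhga9, Pcdhga11 and Pcdhga12, with log2 fold changes of 0.25, 0.44, 0.22 and 0.78, and none of them passed. WT library 3 was the lowest WT library in 11 of the 14 gamma genes below 0. Without it, 8 of 20 gamma genes tested fell and 1 rose, with a median of -0.50, while 38.24% of all genes tested were then called in either direction.

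**Figure D5:**
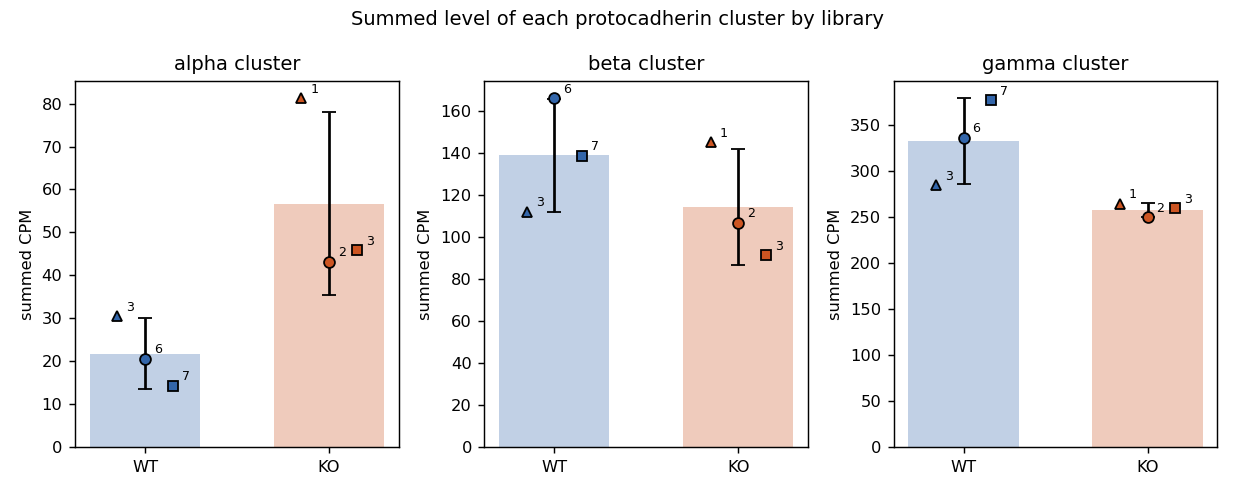
Summed CPM of each cluster. Bars are group means, error bars are SD over 3 libraries, and points are libraries with their replicate numbers. KO lies above WT without overlap in the alpha cluster (56.7 against 21.8 CPM), overlaps WT in the beta cluster and lies below WT in the gamma cluster (258 against 333 CPM).

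Over the 57 genes together the groups overlapped. The sum was 428, 524 and 531 CPM in WT libraries 3, 6 and 7 and 491, 400 and 397 CPM in KO libraries 1, 2 and 3, with a ratio of 0.869. The 6 genes called make up 11.5% of the 52 tested, beside 29% of all genes. The order of these shares was reversed in only some settings. Without the filter 17.54% of members and 15.63% of all genes were called, and without WT library 3 40.38% and 38.24%. In every other alternative the share of members was the lower, as with DESeq2 (26.42% against 28.55%) and limma-voom (44.23% against 48.49%). The C-type genes did not move as a set, with 1 of 5 called higher, 1 lower and 3 not called by the edgeR quasi-likelihood test. Pcdhgc4, just over the threshold, is among those not called. Their share of gamma reads was 45.3% ± 1.3 in WT and 46.1% ± 3.3 in KO, and of alpha reads 46.9% ± 10.1 and 35.6% ± 2.4 (SD, n = 3).

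Among the alternate genes tested, position in the cluster ran with log2 fold change, with opposite signs in the clusters. Counted from the upstream end, Spearman's rho between position and log2 fold change was -0.62 over 9 alpha genes, -0.52 over 21 beta genes and 0.61 over 17 gamma genes. In the alpha cluster Pcdha1, Pcdha2, Pcdha3, Pcdha5 and Pcdha6 reached the filter's minimum in all KO libraries but not in all WT libraries. The alpha values therefore rest partly on genes that entered through the group in which they are high, and are no measure of a trend. The highest values were not at the ends of the alpha and beta clusters: they were those of Pcdha5 among alpha genes and of Pcdhb13 among beta genes. Position also ran with the WT level per own kb in the alpha cluster (0.78) and the beta cluster (0.54) but hardly in the gamma cluster (-0.19). The WT level in turn ran against the log2 fold change in all 3 clusters (-0.75, -0.39 and -0.62), and these last values use the WT libraries on both sides. These are descriptions of genes measured in the same 6 libraries.

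Genes that act on the clusters changed in both directions, as did genes in general. Called were 29% of all genes tested, 13.5% higher and 15.5% lower. Of 11 CTCF and cohesin genes, 3 rose and 1 fell. Smc1a, a cohesin ring subunit, stood at 119, 126 and 119 CPM in WT and 179, 198 and 180 CPM in KO (log2 fold change 0.61 ± 0.09, edgeR quasi-likelihood adjusted p = 0.00504). Rad21, the ring's kleisin, and Pds5b, which binds the ring, rose by 0.60 and 0.46 on the log2 scale, while Mau2, part of the cohesin loader, fell by 0.58. Of 14 genes of silencing and DNA methylation, 3 rose and 1 fell. Smchd1, a silencer of the clusters, stood at 86.0, 71.2 and 85.7 CPM in WT and 126, 119 and 95.5 CPM in KO (0.49 ± 0.14, adjusted p = 0.0402), without overlap. Dnmt1, the maintenance methyltransferase, and Trim28, a corepressor, rose by 1.45 and 0.60 on the log2 scale, and Tet2, which oxidises methylcytosine, fell by 0.75. The median log2 fold changes of these lists were 0.19 and -0.01.

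Among 20 partners and signalling genes of the clustered protocadherins, 2 rose and 5 fell, with a median of -0.16. The shares over all genes tested were 13.5% higher and 15.5% lower, for this list and the next. Marcks, an actin-membrane linker in the pathway by which gamma proteins promote dendrite branching, stood at 1454, 1704 and 1350 CPM in WT and 627, 834 and 742 CPM in KO (-1.03 ± 0.17, edgeR quasi-likelihood adjusted p = 0.00608). Cyfip2, a subunit of the WAVE complex that binds the tails of alpha proteins, fell by 1.09 on the log2 scale, and Psen2, a catalytic subunit of the gamma-secretase that cuts these tails, by 0.83. Abi2, another WAVE subunit, rose by 0.70. Of 11 nonclustered protocadherins tested, 1 rose and 3 fell, with a median of 0.31. Pcdh15, an extracellular link of hair cell bundles, stood at 78.5, 102 and 84.0 CPM in WT and 7.31, 14.7 and 24.9 CPM in KO (-2.49 ± 0.41, adjusted p = 0.00611). Pcdh10 and Pcdh9, of the delta family, fell by 1.07 and 0.66, and Pcdh20 rose by 2.51.

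Of 25 protein-coding genes tested within 500 kb of the outermost members or between the clusters, 4 rose (Wdr55, Arap3, Hbegf and Hars) and 1 fell (Gnpda1, named because it was the only one), with a median of -0.10. Beside these counts, 13.5% of all genes tested were called higher and 15.5% lower. Arap3 had 3, 2 and 2 reads in WT libraries 3, 6 and 7 and 28, 14 and 20 in KO libraries 1, 2 and 3. It reached the filter's minimum of 0.513 CPM in no WT library. Arap3 thus entered the test through the group in which it is high. Taf7, which lies between the beta and gamma clusters, is named because of its position. Its log2 fold change of -0.11 did not pass (edgeR quasi-likelihood, adjusted p = 0.563). None of the 5 other genes tested inside a cluster's span was called by the edgeR quasi-likelihood test, among them the pseudogene Pcdhgb8 and the antisense gene BC037039, which had the lowest adjusted p (0.279).

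Markers of some cell types that a neurosphere can hold differed between the groups. Of all genes tested, 13.5% were called higher and 15.5% lower. Of 24 neuron markers, 4 rose (Syp, Stmn3, Gap43 and Bcl11b) and none fell, with a median log2 fold change of 1.33. Map2, Rbfox3 and Ncam1, named after their values were seen, lay below 0, at -0.26, -0.14 and -0.13. As in the alpha sum, the mean level of the 24 markers was highest in WT library 3 among WT. It was highest in KO library 1 among KO, while KO libraries 2 and 3 stood in the other order. Gap43, a growth cone protein, stood at 200.3, 71.6 and 64.5 CPM in WT libraries 3, 6 and 7 and at 415, 335 and 317 CPM in KO libraries 1, 2 and 3. Of 10 astrocyte markers 8 fell, with a median of -2.33, and of 12 oligodendrocyte lineage markers 8 fell, with a median of -3.06. Agt, an astrocyte gene, stood at 90.3, 159 and 133 CPM in WT and 1.27, 1.35 and 2.27 CPM in KO. All 10 cell cycle genes rose, with a median of 3.34. Markers of mural and meningeal cells summed to 87.4 to 126 CPM in WT and to 451, 150 and 203 CPM in KO libraries 1, 2 and 3, so KO library 1 was highest there too. Cspg4, which the oligodendrocyte lineage list also holds, made up much of these sums. Without it they were 30.9, 25.8 and 32.2 CPM in WT libraries 3, 6 and 7 and 404, 30.4 and 61.5 CPM in KO libraries 1, 2 and 3, so that KO library 2 lay among the WT libraries. Of 8 mural and meningeal markers tested, 2 were called higher (Acta2 and Lum). Acta2 had 2, 2 and 2 reads in WT and 23, 13 and 24 in KO. Lum had 9, 8 and 9 reads in WT and 395, 27 and 31 in KO. No WT library reached the filter's minimum of 0.513 CPM for either gene. Both entered the test through the group in which they are high, so this count is no measure of these markers. Markers of microglia and endothelium summed to 5.63 to 9.17 CPM in WT and 4.86 to 13.2 CPM in KO, with 5 of 10 below 1 CPM in every library. Of 4 tested, none rose and 1 fell. Kdr, the one that fell, stood at 4.59, 6.27 and 3.21 CPM in WT and 0.921, 1.02 and 1.37 CPM in KO (-2.07 ± 0.35, edgeR quasi-likelihood adjusted p = 0.00706). It made up much of the WT sums. The others tested, Pecam1, Csf1r and Cx3cr1, had log2 fold changes above 0 and were not called. The part of these cell types in the protocadherin values was not tested.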

How the data were processed

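RNA-seq libraries of 3 WT and 3 KO neurosphere cultures were grouped by their titles. The authors' deposited table holds whole-number read counts per gene, which were not normalised, and FPKM values that the authors made from them, per the file headers and the values. Per the submitters' processing notes, HISAT2 2.0.5, featureCounts 1.5.0-p3 and the mm10 build were used. No source used here gives the annotation, read length or use of strand. The table's gene lengths equalled exon unions of GENCODE M21 for 98.0% of its genes, and that annotation gave exon overlaps. For the members, the counts were recovered within 0.05 reads from FPKM, gene length and library total.

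The whole table was fitted with edgeR 4.0.16 in R 4.3.3 (quasi-likelihood F test, two-sided, TMM, filterByExpr, no covariates), and p-values were adjusted by Benjamini-Hochberg over 16606 genes with a threshold of 0.05. The SE is the absolute log2 fold change divided by the square root of F. The biological coefficient of variation was 26.5%. The script was tested on simulated counts. Cluster sums and shares got no test. Alternatives were RLE size factors, library totals only, other filters, DESeq2 1.42.0, limma 3.58.1 (voom with quality weights, or log2 FPKM plus 1 or 0.1 at a mean FPKM of at least 0.5), and leaving out each library.

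Members and lists were chosen with earlier results of these data known. Named with values in every library were, per cluster, up to 6 tested members of lowest p, the 4 of highest mean CPM and the C-type genes, and per list up to 4 genes of lowest p. No sequences are printed.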

Additional observations from a re-analysis of the deposited data

How the results depend on the processing

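The summed level of each cluster and the effective numbers kept their direction under every alternative run, with ratios of KO to WT of 2.08 to 3.25 for alpha, 0.728 to 0.914 for beta and 0.722 to 0.827 for gamma. Counts of called genes depended strongly on the setting. Alpha genes called higher numbered 3, and 5 with RLE size factors, 6 without a filter, 6 with DESeq2, 7 with limma-voom and 0 to 7 when 1 library was left out (7 without WT library 3, and 0 without WT library 6 or WT library 7). The 3 include Pcdha5 and Pcdha6, which entered the test through the group in which they are high. Gamma genes called lower numbered 3, and 1 with library totals only, 6 with DESeq2, 8 with limma-voom, 1 with limma on either log2 FPKM scale and 0 to 8 when 1 library was left out (8 without WT library 3, and 0 without WT library 6 or KO library 2). Gamma genes called higher went from 0 to 1 with RLE size factors, without a filter, with DESeq2 and on both FPKM scales, to 2 with limma-voom and to 0 to 1 when 1 library was left out. Beta genes called higher went from 0 to 1 and called lower from 0 to 5 with limma-voom, to 1 lower with DESeq2, and to 0 to 1 higher and 0 to 4 lower when 1 library was left out. Limma-voom called 48.49% of all genes, and leaving out WT library 3 raised that share from 28.98% to 38.24%, so the larger member counts stand beside larger backgrounds. The log2 fold change of Pcdhgc5 changed sign, to -0.0318 with limma-voom and to -0.0323 to 0.147 when 1 library was left out (below 0 without WT library 3, WT library 6, KO library 1 or KO library 3), and that of Cx3cr1 ran from -0.0150 to 1.20, below 0 without KO library 1. The cause was not tested. No paired analysis was possible because the groups share only replicate number 3. Depth limits the alpha cluster most, with 302 to 1411 reads per library over 14 genes.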
